A study of Rattus norvegicus with 36 samples.

Results

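Fatty acid oxidation in the liver and the genes driven by peroxisome proliferator-activated receptor alpha (PPAR alpha) were followed in 36 rat liver samples from animals given decabromodiphenylethane (DBDPE) or its vehicle. The 39 genes were chosen by name, as enzymes of fatty acid oxidation and targets of PPAR alpha, and each was read from the probe set with the highest mean among those that name it alone. Probe sets that name several genes were left out of that choice, also where they were brighter, as for Cd36, Acot1, Pex19 and Cyp4a3. All 39 were measured, of 14217 genes that a probe set of 1 gene names, and 11 of them have more than 1 probe set. No gene was filtered out for low signal.

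DBDPE is a brominated flame retardant, and the series asks which liver transcripts it changes. Male Sprague Dawley rats, an outbred stock, were 7 weeks old at the start and had free access to NTP-2000 diet. On 5 days in a row they were gavaged with corn oil alone (vehicle, 0 mg/kg) or with DBDPE in corn oil at 970, 97.1, 9.71, 0.97 or 0.1 mg/kg, in 5 ml per kg of body weight. RNA came from the left liver lobe, taken 1 day after the last dose. Each of the 6 groups has 6 samples, each taken here to be 1 animal, which the labels do not state, so p-values measure the spread between these samples. The labels also do not say whether food was withdrawn before necropsy.

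Each sample gave 1 Affymetrix array, and 31042 probe sets were tested on a log2 scale, on which 1 unit is a doubling of signal. Array medians lay between 5.07 and 5.12. How finely a difference could be measured is set by the 6 arrays per group: the 95% interval reached 0.17 on either side for the median member and 0.16 for the median probe set. The 9 hepatocyte markers measured, such as albumin, had a mean level between 13.67 and 13.77 in every array, while the 6 adipocyte markers had a mean between 5.36 and 5.85.

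PPAR alpha is a nuclear receptor that binds fatty acids and pairs with the retinoid X receptor on DNA. In rat liver it is best known for its response to fibrate drugs and other peroxisome proliferators, which raise the enzymes of omega hydroxylation and of peroxisomal and mitochondrial beta oxidation. In fasting the same genes help to turn stored fat into acetyl-CoA and ketone bodies. A few of them, such as Pdk4, Angptl4 and Fgf21, also answer to insulin, glucocorticoids or amino acid stress.

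The receptor pair binds a direct repeat of the half-site AGGTCA with 1 base between the copies. RefSeq promoters of the rat build GRCr8 were matched by symbol for 33 of the 39 genes, and the 250 bases before the gene start were searched on both strands. The exact repeat, with any base between the copies, was in 0 of the 33 and in 0.0508% of 33469 promoters. With each copy loosened to AGGNCA, where N is any base, it was in 1 of the 33, that of Fabp1, and in 0.368% of all. These are 2 of 5 forms of the repeat that were tried, and the looser form was kept after its matches had been seen. The other 3 kept the looser second copy and changed the first, letting its T and C both vary, leaving out its first A, or letting that A be any base. Fabp1 matched each of them and Etfb the first, and they were in 0.759%, 0.672% and 0.669% of all promoters. The half-site alone was in 6 of the 33 (Fabp1, Cyp4a3, Acot4, Eci1, Acadvl and Hsd17b4), a share of 18.2% against 14.1% of all, and this count includes the half-site inside the Fabp1 repeat. The motif TGATGNAA, of the kind bound by ATF4 with a C/EBP partner, was searched after the correlation of Fgf21 with Atf4 described further on had been seen. It was in 1 of the 33, that of Fgf21, and in 3.4% of all. A match describes the letters in the window and says nothing of binding.

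Shown are the promoter with the repeat, that of the omega hydroxylase Cyp4a3 with its half-site, and that of Fgf21, the member that varied most. Capitals mark the matches.
Fabp1 (chr4:104749090-104749339, plus strand): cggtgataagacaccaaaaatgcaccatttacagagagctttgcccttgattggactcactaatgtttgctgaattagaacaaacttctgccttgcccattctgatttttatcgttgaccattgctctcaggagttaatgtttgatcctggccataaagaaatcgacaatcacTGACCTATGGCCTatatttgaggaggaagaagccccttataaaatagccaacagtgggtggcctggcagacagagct
Cyp4a3 (chr5:134352287-134352486, minus strand): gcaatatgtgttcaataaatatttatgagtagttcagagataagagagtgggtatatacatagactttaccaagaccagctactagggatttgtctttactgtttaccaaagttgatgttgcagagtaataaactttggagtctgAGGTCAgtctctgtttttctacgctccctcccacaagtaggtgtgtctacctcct
Fgf21 (chr1:105221377-105221626, minus strand): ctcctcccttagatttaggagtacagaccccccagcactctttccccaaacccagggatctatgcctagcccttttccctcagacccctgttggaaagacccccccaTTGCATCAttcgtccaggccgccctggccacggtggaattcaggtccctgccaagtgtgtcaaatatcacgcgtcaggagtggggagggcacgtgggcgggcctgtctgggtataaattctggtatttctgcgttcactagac
The Fabp1 match lies on the minus strand at bases -77 to -65, counted from the gene start. The Cyp4a3 half-site lies on the plus strand at -105 to -100, and the 50 bases nearest that start are not shown. They were left out because the Cyp4a3 gene record starts inside the searched window, so that window is not wholly before the gene record. The Fgf21 match lies on the minus strand at -143 to -136.

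At every dose 0 of the 39 genes passed the limma test, whose threshold is a Benjamini-Hochberg adjusted p of 0.05 over all probe sets. Over the whole array 0.00644% of probe sets passed at 970 and again at 97.1 mg/kg, and 0% at the lowest 3 doses. Those 2 probe sets were Cyp1a1 and Cyp1a2, targets of the aryl hydrocarbon receptor. Cyp1a1 was higher at 970 mg/kg by 6.23 (5.66 to 6.80) on the log2 scale, the 95% interval standing in brackets here and in what follows, with a limma adjusted p of 9.19e-18. The F test of all doses and the trend over dose steps each passed 0 of the 39 genes and 0.00644% of probe sets. The smallest limma adjusted p of any of the 39 was 0.863.

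Most differences from vehicle were small. Their median over the 39 genes was -0.01 at 970 mg/kg, 0.01 at 97.1, -0.05 at 9.71, 0.01 at 0.97 and 0.02 at 0.1 mg/kg, while the median of all probe sets lay between -0.0040 and 0.0010. Taken per animal, as the median of the 39 differences from the vehicle mean, the value was -0.01 ± 0.04 (SD, n = 6) at 970 mg/kg and -0.01 ± 0.04 (SD, n = 6) in vehicle. Differences above 0 numbered 14 of 39 at 970 mg/kg (48.1% of all probe sets), 24 at 97.1 (50.5%), 10 at 9.71 (49.1%), 23 at 0.97 (50%) and 26 at 0.1 mg/kg (49.6%). The genes vary together between animals, so these are not counts of independent genes.

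The 95% interval lay inside a 1.5-fold change either way for 37 of 39 genes at 970 mg/kg (97.8% of all probe sets), 35 at 97.1 (97.7%), 36 at 9.71 (97.7%), 36 at 0.97 (97.8%) and 36 at 0.1 mg/kg (97.9%). An unadjusted limma p under 0.05 was reached by 0 of the 39 at 970 mg/kg (4.87% of all), 1 at 97.1 (5.42%), 4 at 9.71 (5.06%), 1 at 0.97 (4.92%) and 0 at 0.1 mg/kg (4.46%), by 1 in the F test, Acaa2 (4.18%), and by 1 for the trend, Etfdh (5.7%). No gene had all animals of a dose above every vehicle animal, which 0.116%, 0.0548%, 0.0709%, 0.129% and 0.0805% of all probe sets did from 970 down to 0.1 mg/kg. Likewise 0 of the 39 had all animals of a dose below every vehicle animal, against 0.0838%, 0.0966%, 0.11%, 0.106% and 0.058%.

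**Figure D1:**
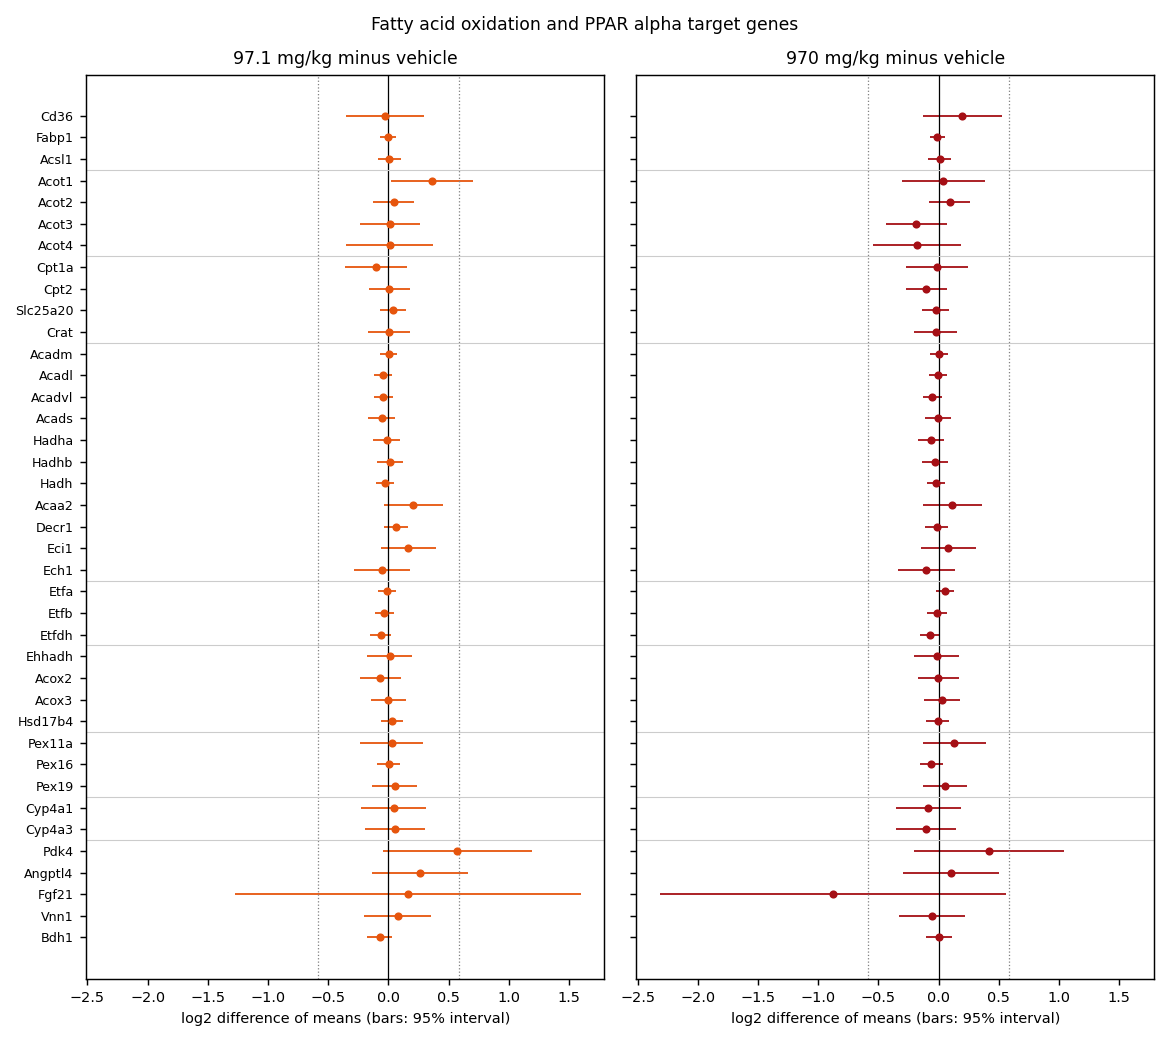
Log2 difference of the group means (97.1 or 970 mg/kg minus vehicle, 6 animals each) for the 39 genes in order of role, with 95% intervals from limma and dotted lines at a 1.5-fold change either way. Most points sit close to 0 with short bars, whereas the bar of Fgf21 reaches from -2.31 to 0.56 at 970 mg/kg.

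Omega hydroxylation, in which Cyp4a enzymes oxidise the far end of a fatty acid, is strongly raised by fibrates in rats. Cyp4a1 had a lowest, median and highest level of 11.19, 11.54 and 11.73 in vehicle, 11.45, 11.58 and 11.72 at 97.1 mg/kg and 10.94, 11.49 and 11.75 at 970 mg/kg. Its medians at 9.71, 0.97 and 0.1 mg/kg were 11.57, 11.58 and 11.69. The groups overlapped at every dose, and the difference at 970 mg/kg was -0.08 (-0.35 to 0.18) with a limma adjusted p of 0.979.

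For Cyp4a3 the levels were 11.23, 11.56 and 11.75 in vehicle and 11.28, 11.43 and 11.66 at 970 mg/kg, a difference of -0.11 (-0.35 to 0.14). At 0.97 mg/kg 3 of 6 animals lay above every vehicle animal, at a difference of 0.16 (-0.09 to 0.40). Cyp4a3 and Cyp4a2 are close copies, and a probe set that names both had differences from -0.07 (970 mg/kg) to 0.04 (0.97 mg/kg).

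Acyl-CoA thioesterases split fatty acyl-CoA into free fatty acid and CoA. Differences at 970 mg/kg were 0.04 for Acot1, 0.09 for Acot2, -0.18 for Acot3 and -0.18 for Acot4. Acot3, with one of the smallest p of the lower genes at this dose, had levels of 5.90, 6.18 and 6.49 in vehicle and 5.85, 6.05 and 6.20 at 970 mg/kg, which overlapped. Acot1 was the 1 gene with an unadjusted limma p under 0.05 at 97.1 mg/kg, at 0.36 (0.02 to 0.70) and an adjusted p of 0.904. Its lowest, median and highest levels were 2.71, 2.82 and 3.30 in vehicle, 2.87, 3.04 and 4.01 at 97.1 mg/kg and 2.70, 2.89 and 3.36 at 970 mg/kg, and 2 of 6 animals at 97.1 mg/kg lay above every vehicle animal. With the sixth replicate at 97.1 mg/kg left out, the difference was 0.22. The Acot1 probe set lay below the array median in all 36 arrays, so a change of the transcript could be hidden there, while the other 38 genes lay above it in every array. A probe set naming both Acot1 and Acot2 had 0.14 at 97.1 mg/kg.

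Fatty acids enter the cell with the help of Cd36, are carried by the binding protein Fabp1 and are activated to acyl-CoA by Acsl1. Fabp1 had levels of 13.91, 13.95 and 14.00 in vehicle and 13.90, 13.93 and 13.99 at 970 mg/kg, a difference of -0.01 (-0.08 to 0.05). It was close to the same in every animal, with a range of 0.10 over the 36. Acsl1 had 0.01 (-0.09 to 0.10). Cd36 had levels of 5.86, 6.43 and 6.78 in vehicle and 6.35, 6.57 and 7.09 at 970 mg/kg, overlapping, with a difference of 0.20 (-0.13 to 0.52) and a limma adjusted p of 0.968. Cd36 is also made by macrophages: all 8 of their measured markers had a difference above 0 at 970 mg/kg (48.1% of all probe sets), with a median of 0.21 and 0 past the threshold, and their mean level lay between 8.19 and 8.74 there and between 7.85 and 8.81 in vehicle. From 97.1 down to 0.1 mg/kg 6, 7, 8 and 8 of these markers were above 0 (50.5%, 49.1%, 50% and 49.6% of all probe sets). Their medians there were 0.10, 0.17, 0.27 and 0.19, while Cd36 had -0.03, -0.06, 0.01 and -0.01. All these comparisons share their vehicle animals. The Cd36 level also had r = -0.555 over the 36 animals, within dose groups, with the gap between the beta-actin probe sets at the 3′ and 5′ ends, a sign of RNA quality. The part of either in the Cd36 value was not tested, and in a bulk sample fewer cells of a type and less RNA per cell cannot be told apart.

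The carnitine shuttle moves long fatty acids into mitochondria, with Cpt1a as its controlled outer step, Slc25a20 as the carrier, Cpt2 as the inner step and Crat acting on short chains. Cpt1a had levels of 10.79, 10.96 and 11.27 in vehicle and 10.74, 11.03 and 11.09 at 970 mg/kg, and medians of 10.83, 10.78, 10.78 and 11.16 from 97.1 down to 0.1 mg/kg. Treated and vehicle animals overlapped at each dose. At 970 mg/kg Cpt1a had -0.01 (-0.27 to 0.25), Cpt2 -0.10 (-0.27 to 0.07), Slc25a20 -0.03 and Crat -0.02. The second Cpt1a probe set, which followed the first between animals at r = 0.871, had -0.0013.

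Mitochondrial beta oxidation removes acetyl-CoA in rounds, begun by the acyl-CoA dehydrogenases and continued by the trifunctional protein (Hadha and Hadhb), Hadh and the thiolase Acaa2, while Decr1, Eci1 and Ech1 deal with double bonds. The 11 genes had differences from -0.10 to 0.11 at 970 mg/kg, 3 of them above 0 (48.1% of all probe sets). At 97.1 mg/kg they ran from -0.06 to 0.21, 5 of them above 0 (50.5% of all probe sets). The dehydrogenases for medium (Acadm), long (Acadl), very long (Acadvl) and short chains (Acads) had 0.0004 (-0.07 to 0.07), -0.01, -0.05 and -0.0036 at 970 mg/kg.

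Acads at 9.71 mg/kg had levels of 9.93, 9.96 and 10.14, against 10.07, 10.12 and 10.16 in vehicle. The difference was -0.11 (-0.22 to -0.0033), with an unadjusted limma p of 0.0439 and an adjusted p of 0.978. There 5 of 6 animals lay below every vehicle animal. Decr1 had the smallest p of the 39 at 0.1 mg/kg, with levels of 12.04, 12.17 and 12.22 against 11.92, 12.07 and 12.11 in vehicle, a difference of 0.09 (-0.0038 to 0.19) and a limma adjusted p of 0.999. Those groups overlapped. Of the lower genes, Acadl had levels of 12.32, 12.37 and 12.47 in vehicle, 12.27, 12.34 and 12.37 at 0.97 mg/kg and 12.25, 12.35 and 12.41 at 0.1 mg/kg, with differences of -0.04 and -0.04, both -0.02 without the fourth vehicle replicate. Acadvl had 10.45, 10.55 and 10.62 in vehicle and 10.40, 10.50 and 10.54 at 0.97 mg/kg, a difference of -0.05.

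Acaa2, the last enzyme of each round, had levels of 12.73, 12.74 and 12.81 at 0.97 mg/kg and 12.05, 12.52 and 12.86 in vehicle, so the treated animals lay close together inside the vehicle range. The difference was 0.29 (0.04 to 0.53), with an unadjusted limma p of 0.0231 and an adjusted p of 0.985. At 970, 97.1, 9.71 and 0.1 mg/kg Acaa2 had 0.11, 0.21, 0.16 and -0.08, the last from levels of 12.04, 12.45 and 12.75. That value was -0.17 without the second vehicle replicate and -0.01 without the third. The second Acaa2 probe set had the opposite sign, at -0.22 for 0.97 and -0.20 for 970 mg/kg, and followed the first between animals at r = 0.119.

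Electrons from the dehydrogenases pass through the flavoprotein made of Etfa and Etfb to Etfdh, which hands them to the respiratory chain. Etfdh had levels of 10.84, 10.87 and 10.91 in vehicle, 10.73, 10.80 and 10.90 at 97.1 mg/kg and 10.72, 10.82 and 10.86 at 970 mg/kg. At each of the highest 4 doses 4 of 6 animals lay below every vehicle animal. The differences were -0.07 (-0.16 to 0.01) at 970, -0.07 at 97.1, -0.08 at 9.71 and -0.05 at 0.97 mg/kg. These comparisons share their vehicle animals, which lay close together. The Etfdh SD was 0.03 in vehicle and 0.06, 0.06, 0.09 and 0.05 from 970 down to 0.97 mg/kg. The trend was -0.01 per dose step, with an unadjusted limma p of 0.0426 and an adjusted p of 0.863. At 970 mg/kg Etfa had 0.05 (-0.02 to 0.13), from levels of 11.80, 11.88 and 11.93 against 11.72, 11.83 and 11.89 and at 0.07 or 0.03 without the second or the fifth vehicle replicate, and Etfb had -0.01.

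Peroxisomes shorten very long and branched fatty acids, begun by acyl-CoA oxidases (here Acox2 and Acox3, for branched chains) and continued by the bifunctional enzymes Ehhadh and Hsd17b4. Ehhadh, a classic peroxisome proliferator target, had levels of 10.89, 11.19 and 11.29 in vehicle and 10.91, 11.08 and 11.36 at 970 mg/kg, a difference of -0.02 (-0.20 to 0.17). Hsd17b4 had 11.50, 11.59 and 11.68 in vehicle and 11.46, 11.60 and 11.66 at 970 mg/kg, a difference of -0.01 (-0.10 to 0.09). Both pairs of groups overlapped, and Acox2 and Acox3 had -0.0020 and 0.03. Of the peroxisome biogenesis genes, Pex11a, which takes part in peroxisome division, had 0.13 (-0.13 to 0.39), and Pex16 and Pex19, which help to place membrane proteins, had -0.06 and 0.05. Pex16 at 9.71 mg/kg had levels of 8.43, 8.56 and 8.62 against 8.49, 8.68 and 8.74 in vehicle, a difference of -0.10 (-0.20 to -0.01). Those groups overlapped, and its unadjusted limma p was 0.0375 and its adjusted p 0.978.

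Pdk4 inhibits pyruvate dehydrogenase and so spares glucose while fat is burnt. The levels of Pdk4 were 8.03, 8.90 and 9.52 in vehicle, 9.08, 9.75 and 10.30 at 9.71 mg/kg, 9.04, 9.27 and 9.90 at 97.1 mg/kg and 7.74, 9.46 and 10.05 at 970 mg/kg. At 9.71 mg/kg 4 of 6 animals lay above every vehicle animal. That difference was 0.88 (0.26 to 1.503), with an unadjusted limma p of 0.00654 and an adjusted p of 0.967. The other doses had 0.42 (-0.20 to 1.04) at 970, 0.57 (-0.05 to 1.19) at 97.1, 0.08 at 0.97 and 0.42 at 0.1 mg/kg. The value at 970 mg/kg was 0.72 without the fourth replicate of that group, the animal with the lowest Pdk4 of all 36, and 0.26 without the first vehicle replicate. The second Pdk4 probe set followed the first at r = 0.947 and had 0.53 at 9.71 mg/kg.

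Angptl4, a secreted inhibitor of lipoprotein lipase, had levels of 9.64, 10.06 and 10.35 in vehicle, 10.16, 10.70 and 11.02 at 9.71 mg/kg and 9.29, 10.20 and 10.71 at 970 mg/kg. At 9.71 mg/kg 4 of 6 animals lay above every vehicle animal. The difference was 0.61 (0.22 to 1.01), with an unadjusted limma p of 0.00347 and an adjusted p of 0.967. At 970, 97.1, 0.97 and 0.1 mg/kg Angptl4 had 0.10, 0.26, 0.34 and 0.37. Its levels at the lowest doses were 9.94, 10.22 and 10.97 (0.97 mg/kg) and 10.004, 10.34 and 10.92 (0.1 mg/kg), which overlapped vehicle, and the difference at 0.97 mg/kg was 0.22 without the fifth replicate of that dose. For both Pdk4 and Angptl4 the value at the middle dose was the highest of the 5, and the comparisons share their vehicle animals.

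Fgf21 is a hormone of the fasting liver that promotes fat burning and ketone production. The levels of Fgf21 were 5.94, 8.65 and 9.47 in vehicle, 6.70, 8.23 and 9.93 at 97.1 mg/kg and 6.06, 6.87 and 8.62 at 970 mg/kg. At the lower doses they were 6.65, 8.08 and 9.60 (9.71 mg/kg), 6.01, 7.47 and 9.15 (0.97 mg/kg) and 5.76, 8.39 and 10.57 (0.1 mg/kg). The groups overlapped over most of their range, and the difference at 970 mg/kg was -0.88 (-2.31 to 0.56) with a limma adjusted p of 0.968, an interval too wide to exclude a large change. Vnn1, a pantetheinase and PPAR alpha target, had levels of 9.57, 9.78 and 10.05 in vehicle and 9.38, 9.73 and 10.07 at 970 mg/kg, a difference of -0.05 (-0.33 to 0.22). Bdh1, which makes the ketone body beta-hydroxybutyrate, had 0.0031 (-0.10 to 0.11) at 970 and -0.07 at 97.1 mg/kg, from levels of 11.28, 11.31 and 11.53 there and 11.33, 11.42 and 11.48 in vehicle. The value at 97.1 mg/kg was -0.11 without the sixth replicate of that dose.

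**Figure D2:**
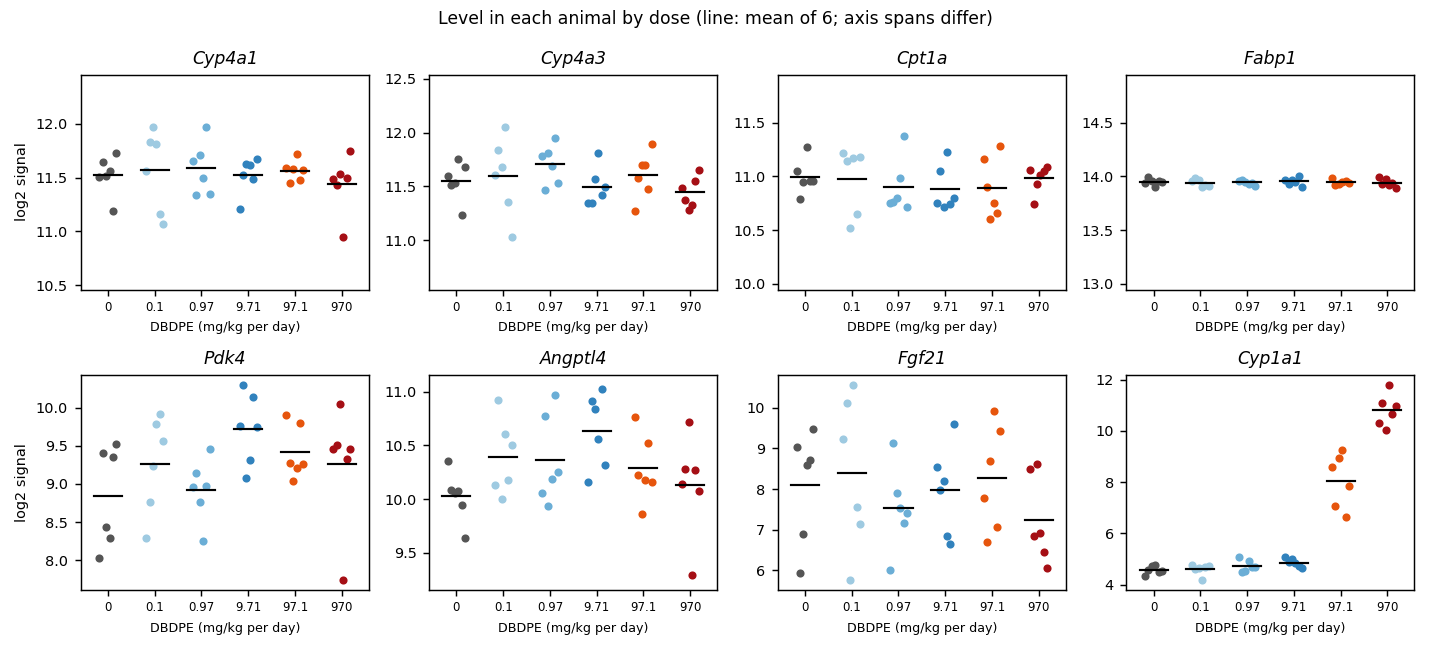
Log2 signal of 7 of the genes and of Cyp1a1 in each of 36 animals by daily dose, with a line at the mean of each 6; the vertical spans differ between panels. Fabp1 lies within a range of 0.10 over all animals, Fgf21 is spread from 5.76 to 10.57, and Cyp1a1 reaches 10.81 ± 0.63 (SD, n = 6) at 970 mg/kg from 4.57 ± 0.15 (SD, n = 6) in vehicle.

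Further genes of the same pathways came from lists on oxidation, ketone bodies, lipid handling, peroxisomes, receptors, fasting and the clock. Of 141 such genes 124 were measured, and 0 passed the limma threshold at any dose. Their median difference was -0.02 at 970 mg/kg, with 55 of 124 above 0 (48.1% of all probe sets). Ppara itself had -0.27 at 970 mg/kg and -0.28, -0.25, -0.44 and -0.05 from 97.1 down to 0.1 mg/kg. Its SD within dose groups was 0.48, and these comparisons share their vehicle animals. The gene of its partner, Rxra, had -0.01 at 970 mg/kg. None of the values that follow, at 970 mg/kg unless another dose is named, passed the threshold.

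Among further PPAR alpha targets and lipid genes, the omega hydroxylase Cyp4a8 had 0.22 (0.01 to 0.44) and the phospholipid transfer protein Pltp 0.16 (-0.09 to 0.41). Fabp4, a fatty acid binding protein of fat cells and macrophages, had -0.90 (-1.71 to -0.10), and the triglyceride lipase Pnpla2 -0.14 (-0.30 to 0.01). From 97.1 down to 0.1 mg/kg Fabp4 had -0.46, -0.36, -0.83 and -0.72, with an SD of 0.74 within dose groups. Of the ketone genes Slc16a6, a ketone body exporter, had -0.23 (-0.44 to -0.03), and Bdh2 0.13. The probe sets of Fabp4, Cyp4a8 and Bdh2 had mean levels of 4.87, 5.03 and 5.06, under the lowest array median of 5.07. Peroxisomal Decr2, Amacr, Abcd2 and Pecr had 0.07, 0.08, -0.23 and -0.03, and the biogenesis genes Pex26 and Pex11g had 0.13 and -0.09. Of the mitochondrial genes Mmut had 0.09 and Pccb -0.09, and of the receptors and cofactors Ppard had 0.13, Rxrb -0.14 (-0.27 to -0.01) and Ncoa1 -0.10. In the fasting and glucocorticoid list 3 of 13 genes were above 0 (48.1% of all probe sets), with a median of -0.27. From 97.1 down to 0.1 mg/kg 4, 3, 3 and 4 of them were above 0 (50.5%, 49.1%, 50% and 49.6% of all probe sets). Their medians were -0.22, -0.21, -0.19 and -0.16. All these comparisons share their vehicle animals, so the lean below 0 at every dose is not an independent repeat. Depp1, a target of FOXO factors, had -0.99 (-1.50 to -0.49) and a limma adjusted p of 0.803. Pck1, of glucose synthesis, had -0.36, while Sgk1 and Sds had 0.45 and 0.28. The clock repressors Nr1d1 and Nr1d2 had -0.61 and -0.47, while Nfil3 and Npas2 of the same list had 0.29 and 0.21.

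The 39 genes differed widely in how much they varied between animals of one dose. The SD within a dose group, pooled over the 6 groups, was under 0.1 for 17 of the 39, against 14.6% of all probe sets, and 0.2 or more for 15, against 11.1%. Steady genes included abundant enzymes and carriers, with 0.03 for Fabp1, 0.04 for Acadm, 0.04 for Hadh, 0.04 for Etfa and 0.05 for Acadl. Fabp1 lay near the top of the signal scale, and the part of saturation in its low SD was not tested. Variable genes included 0.22 for Cyp4a3, 0.24 for Cyp4a1, 0.25 for Vnn1, 0.33 for Acot4, 0.36 for Angptl4, 0.57 for Pdk4 and 1.32 for Fgf21. The median of all probe sets was 0.14. Over the 36 animals Fgf21 spanned a 28.1-fold range and Pdk4 a 5.90-fold range. Dose groups held 12% of the variance of the median member and 12.5% of that of the median probe set, against 96.1% for Cyp1a1. These shares are not corrected for the part that 6 groups take up without any dose effect.

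**Figure D3:**
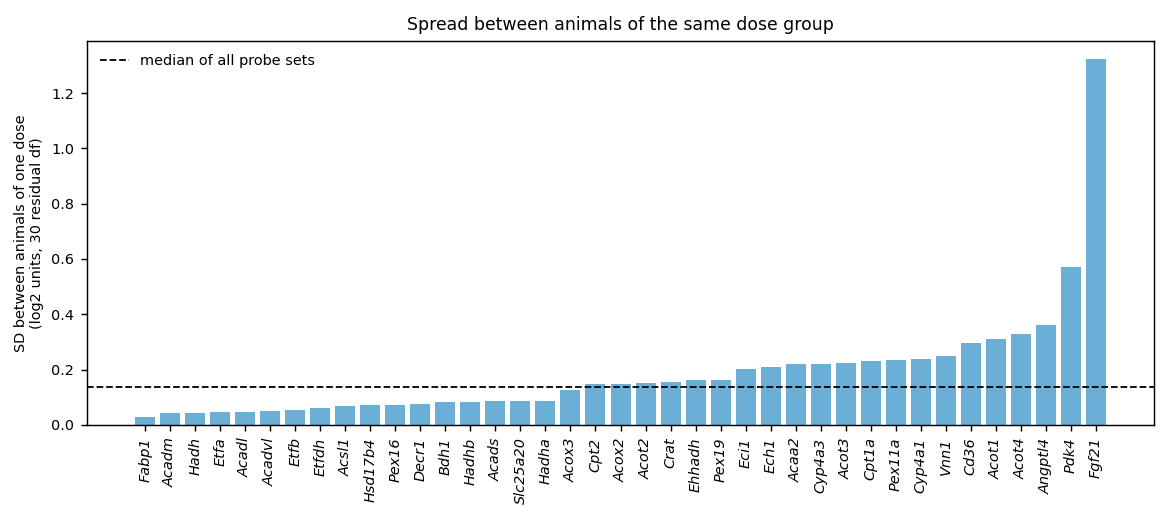
SD of the log2 signal between animals of the same dose group (pooled over 6 groups) for each of the 39 genes, sorted, with a dashed line at 0.14, the median of all probe sets. Of the bars, 17 lie under 0.1, and the last, Fgf21, reaches 1.32.

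To ask whether genes of the same step or of different steps vary together between animals of one dose, each value was centred on its dose group mean. Of 10 pairs tested, 5 passed for Pearson's r in a permutation test that shuffled animals within groups (100000 shuffles, two-sided, adjusted over the 10 pairs). The 10 pairs were chosen with earlier results of these data known, so their p-values are not those of a test set in advance. Cyp4a1 and Cyp4a3 had r = 0.738 (n = 36, permutation p = 1e-05, the smallest the shuffles can give; adjusted 5e-05) and rho = 0.739 (p = 1e-05, adjusted 0.0001). Acot1 and Acot2 had r = 0.723 (permutation p = 1e-05, adjusted 5e-05) and rho = 0.671 (p = 3e-05, adjusted 0.00015). The Acot1 probe set had a mean level of 2.99 and lay below the array median in all 36 arrays, which bears on every pair with Acot1. Hadha and Hadhb, the subunits of 1 enzyme, had r = 0.421 (permutation p = 0.0178, adjusted 0.0356) and rho = 0.441 (p = 0.0138, adjusted 0.046). Without the 2 animals farthest from the median of the first gene, these r were 0.700, 0.689 and 0.378.

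For the other two that passed, the rank correlation did not. Acot1 and Cpt1a had r = 0.510 (permutation p = 0.00622, adjusted 0.0207) and rho = 0.399 (p = 0.0315, adjusted 0.063). Acot1 and Cyp4a1 had r = 0.398 (permutation p = 0.00914, adjusted 0.0228) and rho = 0.373 (p = 0.0246, adjusted 0.0614). Without the 2 animals r was 0.569 and 0.464.

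The remaining 5 pairs did not pass. Pdk4 and Angptl4 had r = 0.353 (permutation p = 0.0623, adjusted 0.104) and rho = 0.282 (p = 0.106, adjusted 0.151). Etfa and Etfb, the subunits of the flavoprotein, had r = 0.214 (permutation p = 0.226, adjusted 0.282) and rho = 0.224 (p = 0.218, adjusted 0.266). Pdk4 and Cpt1a had r = -0.210 (permutation p = 0.219, adjusted 0.282) and rho = -0.210 (p = 0.239, adjusted 0.266). For Acot1 with Ehhadh r was 0.174 (permutation p = 0.344, adjusted 0.382) and rho 0.286 (p = 0.104, adjusted 0.151), and for Fgf21 with Vnn1 r was 0.156 (permutation p = 0.416, adjusted 0.416) and rho 0.157 (p = 0.408, adjusted 0.408). Without the 2 animals these 5 r were, in the same order, 0.252, 0.245, -0.224, 0.135 and 0.020.

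Over all 741 pairs of the 39 genes, 120 (16.2%) had r over 0.5, against 1.11% of all gene pairs on the array, and 8 (1.08%) had r under -0.5, against 0.623%. All gene pairs were taken with no filter on low signal, while 38 of the 39 genes lay above the array median in every array. The part of signal level in these shares was not tested. These correlations are a description: their points share an array, its normalization and its RNA, and the pairs named were picked by their r. The highest r were those of Acot3 with Acot4 (0.893), Acot4 with Cyp4a3 (0.839), Acot4 with Cpt2 (0.811) and Acot2 with Acot4 (0.810). Across steps, Eci1 with Pex11a had 0.797 and Slc25a20 with Hsd17b4 0.785. Acot1, Slc25a20, Ech1 and Hsd17b4 each had r over 0.5 with 15 other members, and Acot2, Acot4, Cpt2, Pex11a and Cyp4a3 with 14 each. The Acot genes are close copies of each other, as are the Cyp4a genes, and how far their probe sets share signal was not tested. Acot1 was read below the array median in every array. Acox2, an oxidase of branched chains and bile acid precursors, had r under -0.5 with 8 members, from -0.518 (Slc25a20) to -0.636 (Hadhb). Pdk4, Angptl4 and Fgf21 had r over 0.5 with 0 other members.

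**Figure D4:**
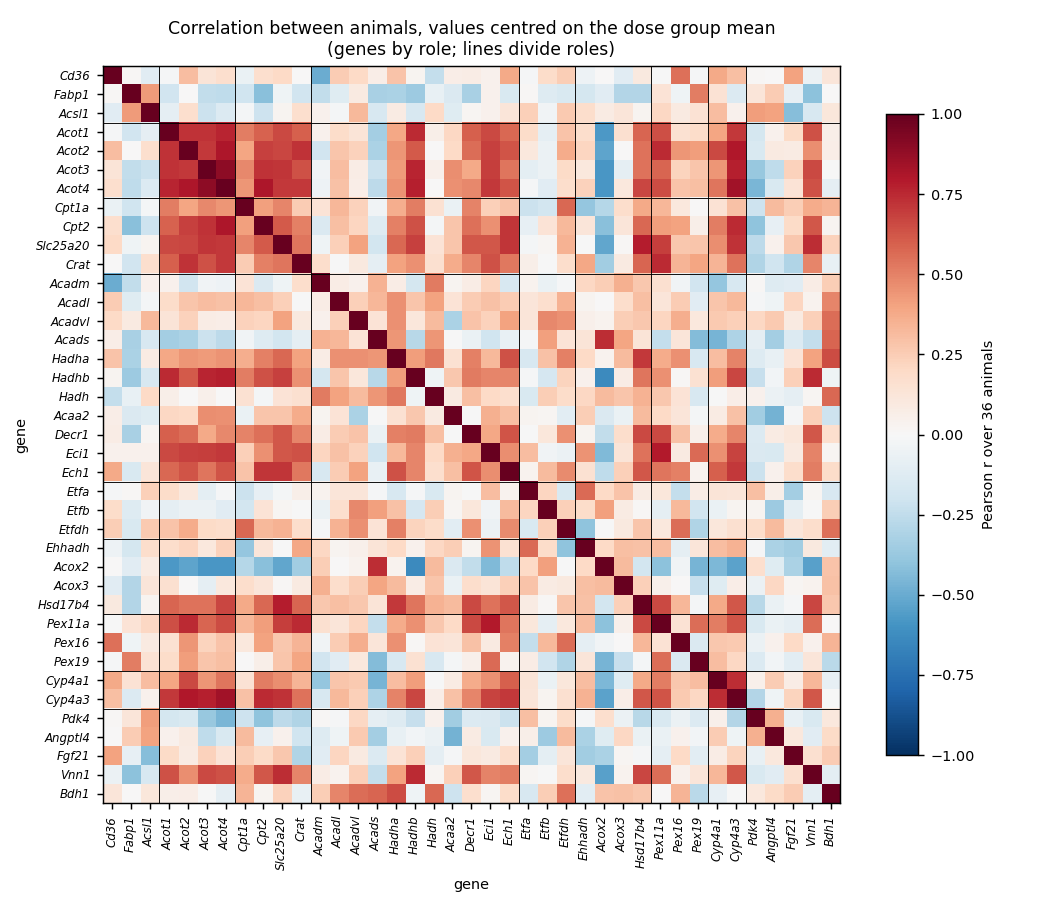
Pearson r between the 39 genes over 36 animals, after each value was centred on its dose group mean, with genes in order of role on both axes, red for r above 0 and blue for r below 0. Acot4 is red with Acot3 (0.893), Cyp4a3 (0.839) and Cpt2 (0.811), Acox2 is blue with Hadhb (-0.636), and Pdk4, Angptl4 and Fgf21 have no r over 0.5 with another member.

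For 4 of the genes, the 5 genes outside the 39 with the highest r over the 36 animals were taken. They were chosen for that value, so no p is given. Closest to Cyp4a1 were Aldh1a1, a retinal dehydrogenase (0.807), Gsta3, a glutathione transferase (0.738), Aig1 (0.691), Pank1, a pantothenate kinase of CoA synthesis (0.672), and Slc22a5, a carnitine carrier (0.648). Closest to Acot1, whose probe set lay below the array median in all 36 arrays, were Etf1 (0.724), Gtf3c3 (0.702), Noc2l (0.702), Hgh1 (0.697) and Nbn (0.695).

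Closest to Fgf21 were Angptl8, an insulin-responsive regulator of lipoprotein lipase (0.909), G0s2, an inhibitor of triglyceride lipase (0.888), Ddit4 (0.863), Atf4 (0.856) and Ddit3 (0.834). Atf4 encodes the central factor of the integrated stress response, and Ddit3 and Ddit4 are among its known targets. Without the 2 animals farthest from the Fgf21 median, r was 0.927 with Angptl8 and 0.843 with Atf4. RNA quality moved with Fgf21 too: its r with the signal gap separating the 3′ from the 5′ probe set of beta-actin was -0.574, the lowest of the 39, with Cd36 close to it at -0.555. The median of the 39 was -0.0061 and the highest 0.380 (Etfa). With that gap held constant, r was 0.862 with Angptl8 and 0.858 with Atf4. The gap had a median of 1.11 in vehicle and 1.17 at 970 mg/kg, and its part in the Fgf21 difference at that dose was not tested.

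Closest to Pdk4 were Foxa2, a liver transcription factor (0.871), Net1 (0.857), Frat2 (0.829), Ell (0.828) and Zfp36l1 (0.821). Pdk4 and Fgf21 had r = -0.071 with each other.

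**Figure D5:**
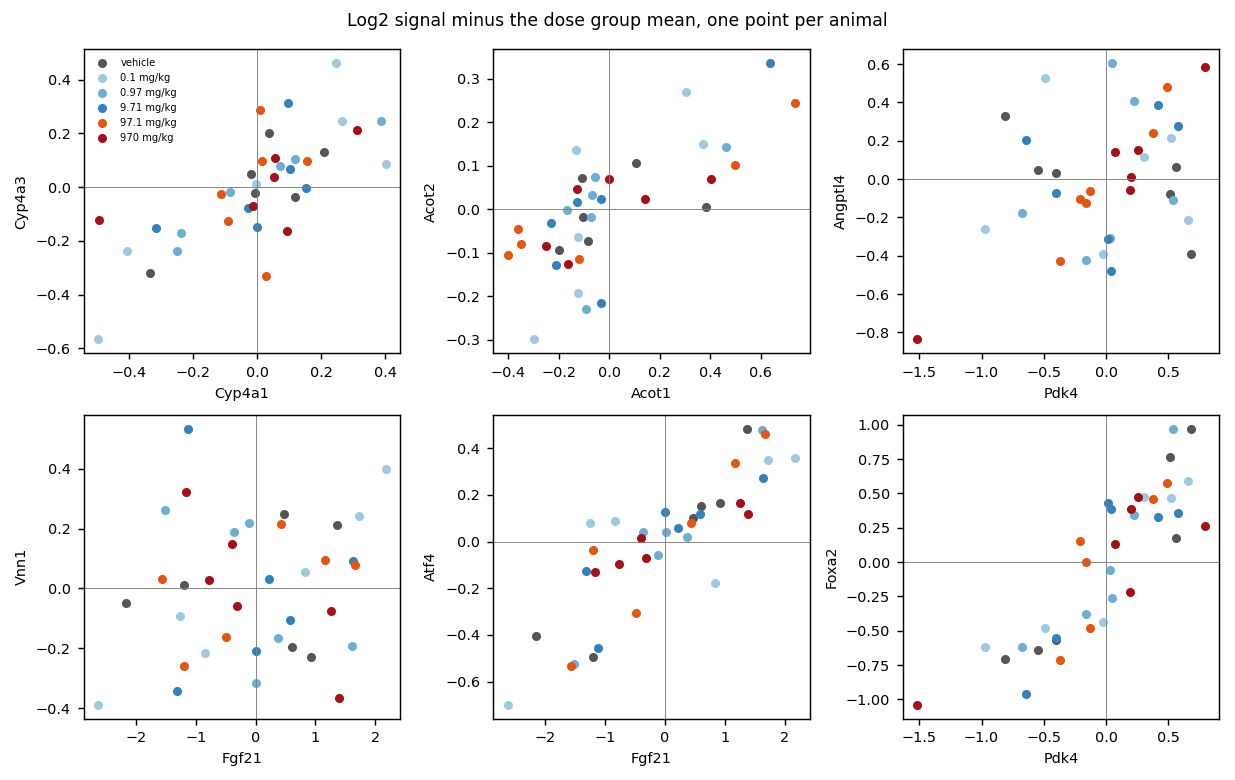
Log2 signal minus the dose group mean for 6 gene pairs, 1 point per animal coloured by dose. Cyp4a1 with Cyp4a3 (r = 0.738), Acot1 with Acot2 (0.723), Fgf21 with Atf4 (0.856) and Pdk4 with Foxa2 (0.871) lie along a rising line, while Pdk4 with Angptl4 (0.353) and Fgf21 with Vnn1 (0.156) are scattered.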

How the data were processed

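The values are log2 signals per probe set as deposited, from Affymetrix 3′ arrays hybridised with biotin-labelled liver RNA of 36 samples. RMA and the affy package are named in the submitters' processing notes, without versions, and which arrays the authors normalized together is not given in the sources used here. Of 31099 probe sets 57 controls were left out. By the platform annotation 20826 of the rest name 1 gene, 436 several and 9780 none.

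The series text names R/maanova and a false discovery rate under 5%. Here limma 3.58.1 under R 4.3.3 took its place: 1 mean per dose group was fitted over all 36 samples with moderated variances, each dose was tested against vehicle, and an F test and a slope on dose step were added, all two-sided with no filter on low signal. The script was tested on simulated data.

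The members, gene lists and pairs were chosen with earlier results of these data known. Levels are given for 12 genes, for genes of smallest p at a dose and, from other lists, for genes of smallest p at 970 mg/kg. Ppara, Rxra and the most correlated pairs were named after their values were seen. Correlations used numpy 2.4.6 and scipy 1.17.1.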

Additional observations from a re-analysis of the deposited data

Results flagged for a closer look

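In 12 of 234 combinations of gene and dose group, 1 animal stood apart from the other 5 by Dixon's test at 95%, and chance flags about 1 in 20 groups. Replicate 4 at 9.71 mg/kg was the highest of its group for 3 genes, at a log2 level of 3.55 for Acot1 (next animal 2.88), 8.67 for Acot4 (next 8.02) and 8.85 for Crat (next 8.40). Also high were replicate 5 at 0.97 mg/kg for Acot1 at 3.32 and, for Bdh1, replicate 2 at 9.71 mg/kg at 11.53 and replicate 6 at 97.1 mg/kg at 11.53. Low animals were replicate 4 at 970 mg/kg for Pdk4 at 7.74 (next 9.33), replicate 1 at 97.1 mg/kg for Ehhadh at 10.83, replicate 2 at 0.97 mg/kg for Crat at 8.24, replicate 6 at 9.71 mg/kg for Acox3 at 6.82, replicate 6 at 0.1 mg/kg for Pex16 at 8.59 and vehicle replicate 5 for Decr1 at 11.92.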

How the results depend on the processing

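Over 200 combinations of a comparison with a setting, 0 of the 39 genes passed, and the smallest limma adjusted p was 0.633, for the trend when the fourth sample at 970 mg/kg was left out. The settings were other array scalings (centring or cyclic loess), array weights, other variance models, a filter on dim probe sets, averaged probe sets per gene, single-dose fits, a threshold of 0.1, a replicate block and each sample left out. With the replicate block 0 genes passed at every dose, and over all probe sets 2 passed at 97.1 and at 970 mg/kg, as without it. Residuals of samples with the same number had a mean correlation of 0.0048 (90 pairs, 15 of them over 0.1), so the numbers were not taken to pair animals. Leaving out 1 sample, the median difference ranged from -0.03 to -0.0004 at 970 mg/kg, -0.01 to 0.03 at 97.1, -0.07 to -0.02 at 9.71, -0.0043 to 0.03 at 0.97 and -0.0008 to 0.05 at 0.1 mg/kg. Of the 10 pairs 5 passed under each scaling, with uncentred values and, in a setting chosen after seeing the data, given the beta-actin gap.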

Other observations

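Within single dose groups of 6 animals the correlations ranged widely, and differences between them were not tested. Pdk4, which spares glucose, and the lipase inhibitor Angptl4 had r = -0.752 in vehicle and 0.969 at 970 mg/kg, with 0.969 at 97.1 mg/kg. Fgf21 and Vnn1 had r = 0.967 at 0.1 mg/kg and -0.839 at 970 mg/kg. Cyp4a1 and Cyp4a3 ranged from 0.237 at 97.1 mg/kg to 0.976 at 0.97 mg/kg.

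Probe sets of one gene did not always vary together between animals. The chosen Pex19 probe set had r = -0.318 and -0.333 with the pair that name Pex19 and a second locus, and the Eci1 probe set had r = -0.251 with a dim one at a mean level of 4.11. For Pex11a and Bdh1 the second probe sets followed the chosen one at r = 0.823 and 0.780.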
